A study of Mus musculus with 20 samples.

Results

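The miRNAs that lie antisense to or next to Rtl1, in the imprinted Dlk1-Dio3 region of mouse chromosome 12, were followed while naive embryonic stem cells became epiblast stem cells. Named members were 10 mature arms of 6 hairpins (miR-337, miR-431, miR-433, miR-127, miR-434 and miR-136), out of 1063 miRNAs present in the tables of both cell lines. All 10 were in both tables, and all 10 were among the 813 miRNAs tested. The opposite arms of the miR-431 and miR-433 hairpins are not in the set. They are counted among the other miRNAs of the region, and they are named for the arm ratios and as neighbours of the set.

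Small RNA libraries were made from 2 mouse embryonic stem cell lines, E14, which is male, and PGK, which is female. Day 0 cells of both lines grew in 2i medium, which holds embryonic stem cells in the naive state with inhibitors of Mek and Gsk3. They were then carried on fibronectin in N2B27 with Activin A and Fgf2, the medium of epiblast stem cells, and sampled at day 4, at day 10, between days 19 and 23, and between days 27 and 30 (called late here). Each line went through 2 differentiation experiments, numbered replicates 2 and 3, which gave 20 libraries in 10 groups of 2. The female cells of the 2 later windows came from days 23 and 21 and from day 29 in both experiments, and the male cells from days 21 and 19 and from days 27 and 30. The day 0 samples of replicate 3 of both lines are labelled as differentiating by cell type, and they were grouped by their day label. Since E14 stands for all male and PGK for all female cells, sex cannot be told apart from line, and p-values measure only the spread between these differentiation experiments.

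The Dlk1-Dio3 region holds protein-coding genes that are expressed from the paternal chromosome, among them Dlk1, Rtl1 and Dio3, and noncoding RNAs and many miRNAs that are expressed from the maternal one. Rtl1 encodes a retrotransposon-derived protein needed in the placenta. The maternal antisense transcript that crosses it carries miRNA hairpins, and because these are copied from the other strand of the same DNA, their mature arms pair fully with the paternal Rtl1 messenger RNA and can direct its cleavage. Loss of expression of the maternal noncoding RNAs in some embryonic and induced stem cell lines is known to go with poor developmental capacity. The counts carry no information on which parental allele was transcribed.

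The mature sequences are shown because the arms have their position in common but no seed, the stretch that selects most targets. They come from RefSeq (GRCm38.p6), which matched all 10 by name, run 5′ to 3′ and have the seed (bases 2 to 8) in capitals, and they follow the order of the hairpins along the plus strand (the prefix mmu, for mouse, is left out elsewhere).
mmu-miR-337-5p: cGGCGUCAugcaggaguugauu
mmu-miR-337-3p: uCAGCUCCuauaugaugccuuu
mmu-miR-431-5p: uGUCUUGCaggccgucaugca
mmu-miR-433-3p: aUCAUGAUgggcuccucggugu
mmu-miR-127-5p: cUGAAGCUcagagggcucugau
mmu-miR-127-3p: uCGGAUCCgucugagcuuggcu
mmu-miR-434-5p: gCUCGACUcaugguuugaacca
mmu-miR-434-3p: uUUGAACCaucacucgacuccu
mmu-miR-136-5p: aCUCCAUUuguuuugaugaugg
mmu-miR-136-3p: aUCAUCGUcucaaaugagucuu
No pair of the 10 has a seed in common, and 0 of the other names among 1679 mature mouse miRNAs in RefSeq share a seed with any of them.

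On GRCm38 the hairpins lie on the plus strand of chromosome 12, while Rtl1 is on the minus strand. In GENCODE M21 Rtl1 spans chr12:109589193-109600330, with its coding sequence in the second exon at chr12:109590172-109595403. The hairpins of miR-431 (chr12:109590447-109590537), miR-433 (chr12:109591715-109591838), miR-127 (chr12:109592846-109592915), miR-434 (chr12:109594506-109594599) and miR-136 (chr12:109595327-109595388) all lie inside that coding sequence, on the opposite strand. The miR-337 hairpin (chr12:109585789-109585885) lies 3308 bp outside the GENCODE gene, but inside the longer span that RefSeq gives Rtl1 (chr12:109564900-109604418). For 8 of the 10 arms the exact complement stands in the coding sequence of the Rtl1 transcript, and the pair of miR-337 arms have no such site in it. As examples, the complements of the most abundant arm and of miR-434-3p in the Rtl1 transcript are shown, read 5′ to 3′, with the bases opposite the seed in capitals.
Rtl1 at miR-127-3p: agccaagctcagacGGATCCGa
Rtl1 at miR-434-3p: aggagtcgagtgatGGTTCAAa
The sites are at positions 2642 to 2663 and 965 to 986 of the 6358 bases of the transcript. Rtl1 messenger RNA was not analysed here.

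The libraries held 7.11 to 18.0 M (mega) miRNA counts, so that the lowest value of any of the 10 arms, 9.19 CPM, lay far above the 3 counts that a count of 0 allows (0.166 to 0.422 CPM, counting error only). The miR-302 and miR-367 arms that mark primed cells (4 of 4 measured) summed to 157.5 to 545.5 CPM at day 0 and to 8516 to 70970 CPM in every later library, and the 3 arms listed for pluripotent cells were present throughout. Of the other cell types listed, the 5 arms of fibroblasts or mesenchyme were highest at day 0 (3254 to 8817 CPM, against 351.6 to 3129 CPM later), and the 5 of blood and endothelium, 3 of them under older names in the tables, summed to 544.9 to 714.6 CPM in female day 0 cells and to 85.55 to 386.4 CPM elsewhere. These libraries are bulk samples, in which fewer cells of a type and less RNA per cell cannot be told apart. Below, CPM are counts relative to the library total, scaled by edgeR's TMM factors, a log2 change is given ± its SE, and each adjusted p is that of edgeR's quasi-likelihood test with Benjamini-Hochberg adjustment over all 813 miRNAs, with a call at 0.05.

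The opening comparison asked what happened to these miRNAs in the first 4 days after naive cells were moved to epiblast medium. In the female line 9 of the 10 arms were called higher, while 24.5% of all tested miRNAs were in that comparison. In the male line 8 of 10 were called higher, against 25.1% of all tested. The median log2 change of the 10 arms was 2.05 in the female line and 1.18 in the male line, where the medians over all tested miRNAs were 0.03 and 0.09. The arms that did not pass were miR-136-5p in both lines and miR-337-3p in the male line. The other miRNAs of the Dlk1-Dio3 region, of which 94 were tested, had medians of 2.00 and 1.42 at that stage, with 74 and 65 called higher, so rises were also common in the rest of the region.

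miR-127-3p, known to repress Bcl6 in addition to pairing with Rtl1, was the most abundant arm. In female cells its level was 43296 and 29153 CPM at day 0 (replicates 2 and 3 in turn, here and below) and 238932 and 145206 CPM at day 4. In male cells it was 44766 and 32567 CPM at day 0 and 129687 and 78864 CPM at day 4. Every day 4 library lay above every day 0 library of both lines, and in each line the level at both days was higher in replicate 2 than in replicate 3. The changes were 2.41 ± 0.45, adjusted p = 0.000717 in the female line and 1.43 ± 0.44, adjusted p = 0.0164 in the male line. Its partner on the other side of the hairpin, miR-127-5p, was far rarer, at 210.2 and 183 CPM in female day 0 cells and 1449 and 1055 CPM at day 4. In male cells miR-127-5p went from 262 and 288 CPM to 844 and 582 CPM. It rose by 2.67 and 1.37 on the log2 scale, again without overlap between the days.

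The arms of miR-434, both complementary to Rtl1, had the lowest adjusted p-values of the set at day 4 in both lines. miR-434-5p went from 1526 and 1499 CPM to 11589.9 and 9686 CPM in female cells. In male cells it went from 1723 and 1758 CPM to 6623 and 3889 CPM. The day 0 libraries of a line were nearly equal and the day 4 libraries were all above them, with a wider gap between replicates in male cells. The changes were 2.81 ± 0.31, adjusted p = 7.98e-06 and 1.59 ± 0.30, adjusted p = 0.000937. miR-434-3p stood at 12618 and 10692 CPM in female day 0 cells and 46678 and 39063 CPM at day 4, and in the male line at 8889.9 and 11988 CPM and 32603 and 26613 CPM. No day 4 library of miR-434-3p overlapped with day 0, and it rose 3.68-fold in female and 2.84-fold in male cells.

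miR-431-5p, which is known to act on Pax7 in muscle progenitors, and miR-433-3p come from the hairpins nearest the end of the Rtl1 coding sequence. miR-431-5p went from 4028 and 3527 CPM to 11606 and 9874 CPM in female cells, and from 4807 and 4429 CPM to 9220.0 and 8048 CPM in male cells. miR-433-3p went from 608 and 800.3 CPM to 1897 and 2449 CPM in female cells, and from 520.3 and 864 CPM to 1318 and 1802 CPM in male cells. In each of these 4 cases both day 4 libraries lay above both day 0 libraries. The changes of miR-431-5p were 1.51 ± 0.33, adjusted p = 0.00224 and 0.90 ± 0.32, adjusted p = 0.0354, and those of miR-433-3p were 1.63 ± 0.33, adjusted p = 0.00123 and 1.17 ± 0.32, adjusted p = 0.00923.

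miR-136-3p, the more abundant arm of the hairpin nearest the start of the Rtl1 coding sequence, was at 3447 and 2499 CPM in female day 0 cells and at 12437 and 10102 CPM at day 4. In male cells it was at 3197 and 3109 CPM and 8025 and 6425 CPM. It rose by 1.92 and 1.20 on the log2 scale, with no overlap between the days. The miR-337 arms were the rarest members. miR-337-5p went from 9.19 and 15.6 CPM to 55.3 and 89.6 CPM in female cells and from 13.2 and 18.7 CPM to 30.6 and 41 CPM in male cells (2.55 ± 0.41, adjusted p = 0.000215, and 1.16 ± 0.39, adjusted p = 0.0266). miR-337-3p rose in female cells, from 11.6 and 17.7 CPM to 37.8 and 95.5 CPM (2.18 ± 0.58, adjusted p = 0.00822). In male cells miR-337-3p was at 12.3 and 28.8 CPM at day 0 and 27.4 and 49 CPM at day 4, so that the days overlapped, and its change of 0.89 ± 0.56, adjusted p = 0.215, did not pass.

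The female day 4 count was 7 to 9 when any single library was left out. The male count rested on fewer margins: it was 3 without male day 0 replicate 2, male day 0 replicate 3 or male day 4 replicate 2. It was 5 without male day 4 replicate 3, female day 10 replicate 3, female days 19 to 23 replicate 2, either female late library or either male library of days 19 to 23. It was 6 without any of 5 further libraries, 7 without any of 3 and 8 without any of only 2. With each line fitted alone, or with no filter on low counts, it was 5 in the male line. DESeq2 and RLE scaling (the size factors of DESeq2) each gave 6, and library totals in place of TMM factors gave 7. Markers of some other cells moved in the same 4 days. The 3 neural arms listed summed to 164.2 to 256.0 CPM in female and 212.1 to 314.3 CPM in male day 0 cells, and to 635.1 to 1021 CPM and 1268 to 1751 CPM at day 4. The 3 muscle arms went from 1.257 to 7.286 CPM in female and 0.5481 to 2.379 CPM in male cells to 20.69 to 38.67 CPM and 42.68 to 72.0 CPM, with miR-206-3p at 0 in 3 of these 4 groups. Fibroblast arms moved the other way, from 3746 to 8817 CPM and 3254 to 6853 CPM down to 592.0 to 2219 CPM and 351.6 to 572.7 CPM, with miR-214-3p at 0 in all 4 groups. The arms of blood and endothelium went from 544.9 to 714.6 CPM down to 325.8 to 386.4 CPM in female cells, and in male cells they overlapped between the days (179.7 to 280.8 CPM and 220.1 to 228.0 CPM). The part of other cell types in the rise was not tested.

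**Figure D1:**
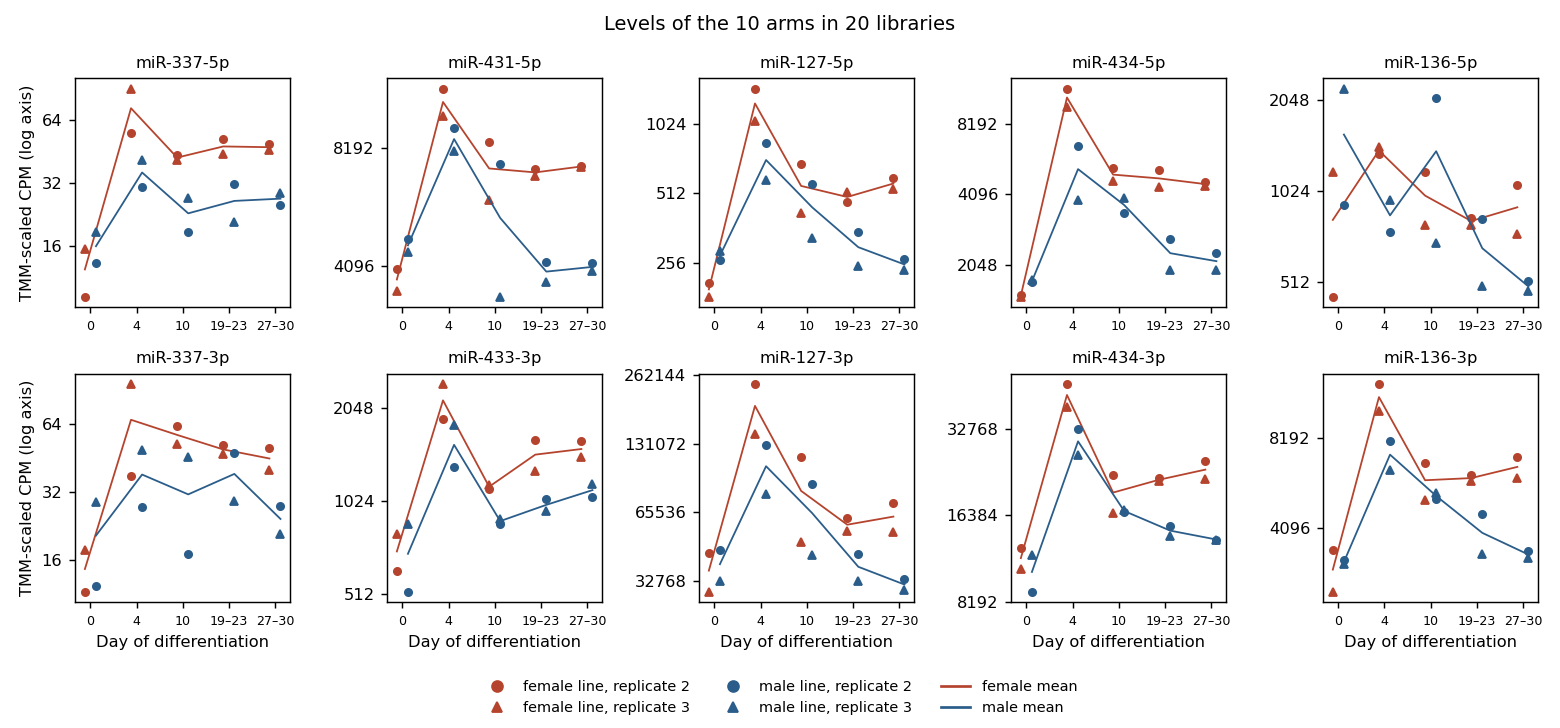
Levels of the 10 arms in TMM-scaled CPM on log axes with a base of 2, by day of differentiation, with 1 point per library and lines through the mean of the 2 libraries of a group (female line red, male line blue, circles replicate 2, triangles replicate 3). The female day 4 mean is the highest of all 10 group means in 9 of the 10 panels, and in the panel of miR-136-5p the male day 0 mean is.

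Next, the course after day 4 was compared with day 0 in each line. In the female line 8 of the 10 arms were called higher than at day 0 at each of the 3 later stages, where 21.3%, 21.2% and 24.1% of all tested miRNAs were. The female changes were above 0 for 10, 9 and 10 arms in turn. The medians of the 10 arms were 1.08, 1.03 and 1.12 on the log2 scale. In the male line 2 were called higher at day 10 (16.7% of all tested), miR-434-3p and miR-434-5p, and 0 of 10 in either later window (15.9% and 19.6% of all tested). The male medians were 0.65, 0.36 and 0.16. By edgeR 0 arms were called in either direction in male cells of days 19 to 23 (34.3% of all tested), with 1 at an unadjusted p under 0.05 and 0 by DESeq2. Of all 813 tested, 358 had an unadjusted p under 0.05 there, and DESeq2 called 303. In late male cells 1 was called lower, miR-136-5p, where 21.2% of all tested miRNAs were lower.

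Among female cells the 2 arms not called differed between stages. At day 10 they were miR-433-3p (0.70 ± 0.32, adjusted p = 0.0982) and miR-136-5p. In both later windows they were miR-136-5p and miR-127-3p, which stood at 61480.2 and 53871 CPM at days 19 to 23 and 71692 and 53499 CPM in late cells. All 4 of these miR-127-3p libraries were above the female day 0 libraries, yet the changes of 0.67 ± 0.43, adjusted p = 0.228, and 0.79 ± 0.43, adjusted p = 0.151, did not pass. With the replicate as a block they did, at 0.71 (adjusted p = 0.031) and 0.80 (adjusted p = 0.0158). miR-434-5p stood at 5301 and 4658 CPM, 5188 and 4405 CPM and 4624 and 4446 CPM in turn. Each of these was above both day 0 values, and the late change was 1.58 ± 0.30, adjusted p = 0.000638. The arms of miR-337 kept log2 changes of 1.93 (miR-337-5p) and 1.62 (miR-337-3p) in late female cells, from levels of 48.8 and 45.7 CPM and 49.9 and 40.1 CPM. The other 5 called arms (miR-127-5p, miR-431-5p, miR-433-3p, miR-434-3p and miR-136-3p) had late changes between 0.96 and 1.52 on the log2 scale. Female day 0 replicate 3 weighed on these counts: without it 2, 2 and 4 arms were called at the 3 later stages. Without female day 10 replicate 2 the day 10 count was also 2, and it was 5 without either female late library or either male library of days 19 to 23, and 4 with each line fitted alone. The count of days 19 to 23 was 3 and 5 without its replicate 2 and 3, and 5 with no filter on low counts, and the late count was 5 without either late library.

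In late male cells the log2 changes from day 0 ran from -1.67 (miR-136-5p, the only call) to 0.75 (miR-337-5p), and 6 of 10 were above 0. miR-127-3p was at 33276 and 29654 CPM, against 44766 and 32567 CPM at day 0 (-0.30 ± 0.43, adjusted p = 0.611). miR-434-3p, at 13522 and 13524 CPM, was above both of its day 0 libraries, at 8889.9 and 11988 CPM (0.37 ± 0.25, adjusted p = 0.251), and the miR-127-3p values overlapped between the stages. The scaling bore most on the pair of later male stages. With library totals in place of TMM factors the median of all tested miRNAs moved up by 0.655 in late male cells and by 0.702 at days 19 to 23. The median of the 10 arms was then 0.81 and 1.06, and 5 and 6 of the 10 arms were called higher. The share of all tested miRNAs called with library totals is not given here, so these counts have no background. Under that scaling miR-136-5p was not called, and the late changes of miR-127-3p (0.37), miR-127-5p and miR-431-5p turned positive. Without the Dlk1-Dio3 miRNAs in the scaling the late change of miR-127-5p also turned positive, and 0 arms were called higher. At male day 10 library totals gave 5 calls, the replicate block 4 and the fit of the male line alone, like that with no filter, 1. That count was 0 without male day 0 replicate 2 or male day 10 replicate 3, and 1 without any of 16 of the other libraries. In male cells of days 19 to 23, 1 arm was called without female day 0 replicate 3, male day 0 replicate 2 or male day 10 replicate 3, or with a filter at 10 CPM.

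**Figure D2:**
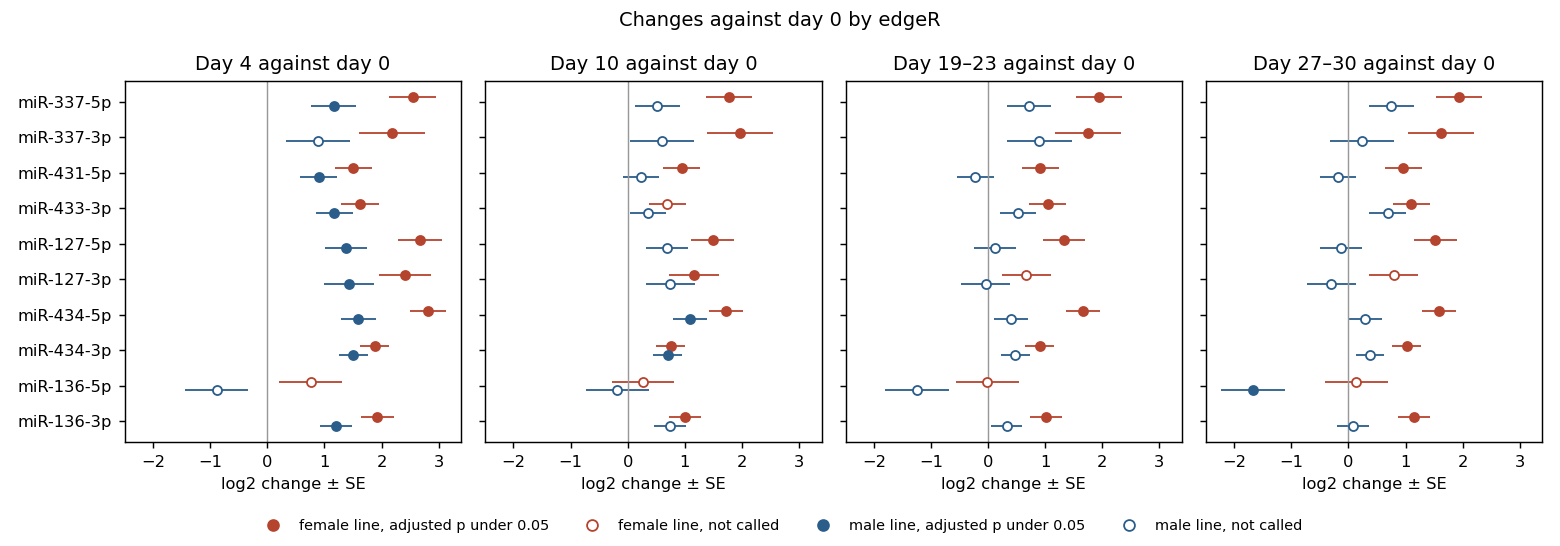
Log2 change of each arm against day 0 of the same line, with bars of 1 SE, at the 4 later stages (female line red, male line blue, filled where the adjusted p of edgeR's test was under 0.05). At day 4 all 10 female values and 9 male values are above 0, and in late cells 8 female values and 1 male value are filled, the male one being that of miR-136-5p at -1.67.

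When the steps between successive stages were tested, the only calls after day 4 came between days 4 and 10. In the female line miR-434-3p went from 46678 and 39063 CPM at day 4 to 22609 and 16738 CPM at day 10 and fell (-1.12 ± 0.25, adjusted p = 0.018), as did miR-434-5p (-1.10 ± 0.30, adjusted p = 0.0355), where 6.03% of all tested miRNAs were lower. All 10 arms had negative changes over this step, with a median of -0.93 against -0.27 over all tested. The calls depended on the fit: 0 or 1 of the pair remained called when any single library was left out, 0 remained with library totals, no filter, a filter at 10 CPM or each line alone, and RLE scaling (the size factors of DESeq2) left 1. With library totals the change of miR-337-3p turned positive. With the replicate as a block 5 arms were lower, adding miR-127-3p (-1.29, adjusted p = 0.00438), miR-127-5p (-1.20, adjusted p = 0.0266) and miR-136-3p (-0.93, adjusted p = 0.0203). The share of all tested miRNAs lower with the block is not given here, the 6.03% being that of the main fit. In the male line the median over this step was -0.66 and 0 arms were called by edgeR, where 8.12% of all tested were (2 at an unadjusted p under 0.05, 0 by DESeq2). Of all 813 tested, 194 had an unadjusted p under 0.05 over this male step, and DESeq2 called 109. With the block, miR-434-3p was lower in male cells (-0.80, adjusted p = 0.0317), and 1 arm was also called with the region left out of the scaling. For the steps from day 10 to days 19 to 23 and on to late cells, 0 arms were called in either line by edgeR or DESeq2, and of all tested 0.369% and 0% were called in female and 0.246% and 0% in male cells. At an unadjusted p under 0.05 there was 1, in the male step from day 10, and none in the other 3 comparisons. Among all 813 tested there were 96 in that male step, 37 in the later male step, and 53 and 22 in the female steps in turn.

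The order of the 10 group means followed these steps. The mean of female day 4 was the highest of all groups for 9 arms, followed by male day 4 for 7 of them. Within the female line day 4 held the highest mean for 10 of 10 arms and day 0 the lowest for 9. Within the male line day 4 held the highest mean for 8 arms, and the lowest lay at day 0 for 6 and in late cells for 3. For miR-127-3p the female day 4 libraries lay above the male ones, although the difference of 0.88 ± 0.43, adjusted p = 0.275, did not pass. From male day 4 downwards its order was female day 10, male day 10, female late, female days 19 to 23, male day 0, male days 19 to 23, female day 0 and male late, and neighbours in that order overlapped in their libraries except between female days 19 to 23 and male day 0. Over the 20 libraries the arms spanned from 2.84-fold (miR-431-5p) to 7.03-fold (miR-434-5p) between the lowest and the highest group mean.

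The lines were then set against each other. At day 0 the 10 arms had a median female minus male difference of -0.25 on the log2 scale, and from day 4 on the medians were 0.76, 0.35, 0.61 and 0.88, with 10, 9, 10 and 10 arms higher in female cells. By edgeR 0 of the 10 were called at any of the 5 stages, where 8.73%, 5.04%, 0%, 0% and 0% of all tested were called in either direction. Unadjusted p-values under 0.05 numbered 0, 5, 1, 5 and 6 among the arms, and DESeq2 called 0, 1, 0, 0 and 0. Among all 813 tested they numbered 155, 168, 97, 60 and 63, and DESeq2 called 102, 78, 29, 2 and 4. The replicate block gave 2 calls at day 4, miR-127-3p (0.88, adjusted p = 0.0449) and miR-434-5p (1.03, adjusted p = 0.0282). That block pairs the equally numbered experiments of the lines. In late cells the female libraries of miR-434-5p, at 4624 and 4446 CPM, were above the male ones, at 2299 and 1947 CPM, and the difference was 1.09 ± 0.30, adjusted p = 0.373. The late female libraries of miR-136-3p (7118 and 6027 CPM) were also above the male ones (3431 and 3248 CPM), with a difference of 0.98 ± 0.28, adjusted p = 0.373. Over all tested miRNAs the medians of this comparison were -0.03, 0.14, 0.09, 0.20 and 0.18 from day 0 to late cells.

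Whether the change from day 0 itself differed between the lines was tested as an interaction. The female change was larger for all 10 arms, with median differences of 1.10 at day 4 and 1.16 in late cells. Over all tested miRNAs these medians were 0.17 and 0.24. The interactions share their day 0 libraries, so the one is no support for the other. By edgeR 0 of 10 passed at either stage (0% and 0.369% of all tested), with 3 and 6 at an unadjusted p under 0.05 and 0 by DESeq2. Of all 813 tested, 118 and 113 had an unadjusted p under 0.05, and DESeq2 called 17 and 39. The lowest adjusted p among the arms was that of miR-127-5p in late cells (1.65 ± 0.52, adjusted p = 0.187). At day 4 it was that of miR-434-5p (1.22 ± 0.42, adjusted p = 0.237). Day 0 differences of the opposite sign enter these values, such as that of miR-127-5p, at -0.48.

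As shares of plain counts, the 10 arms together took up a large part of each library. Female day 0 libraries gave them 5.54% and 4.21% of all miRNA counts, and those of day 4 gave them 18.0% and 18.4%. The female shares were then 13.8% and 9.70% (day 10), 12.9% and 11.4% (days 19 to 23) and 12.6% and 11.4% (late). The male shares were 5.27% and 5.09% (day 0), 13.03% and 12.9% (day 4), 9.66% and 8.96% (day 10), 9.63% and 8.17% (days 19 to 23) and 7.84% and 7.29% (late). In both lines each later library was above both day 0 libraries, and from day 4 on each female library was above both male libraries of its stage, by the narrowest margin at day 10 (9.70% against 9.66%). The mean share at day 4 was 3.73 times that of day 0 in female and 2.50 times in male cells, and in late cells 2.46 and 1.46 times. Shares use library totals, so they move with whatever else takes up the counts, and late male cells show the difference: their share was above day 0 while the TMM-scaled median was near 0. In all 20 libraries the arms held 41.2% to 50.6% of the counts of the Dlk1-Dio3 miRNAs, and miR-127-3p alone held 54.6% to 73.3% of the counts of the 10 arms. The share of miR-127-3p within the set was higher in replicate 2 than in replicate 3 in all 10 groups.

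**Figure D3:**
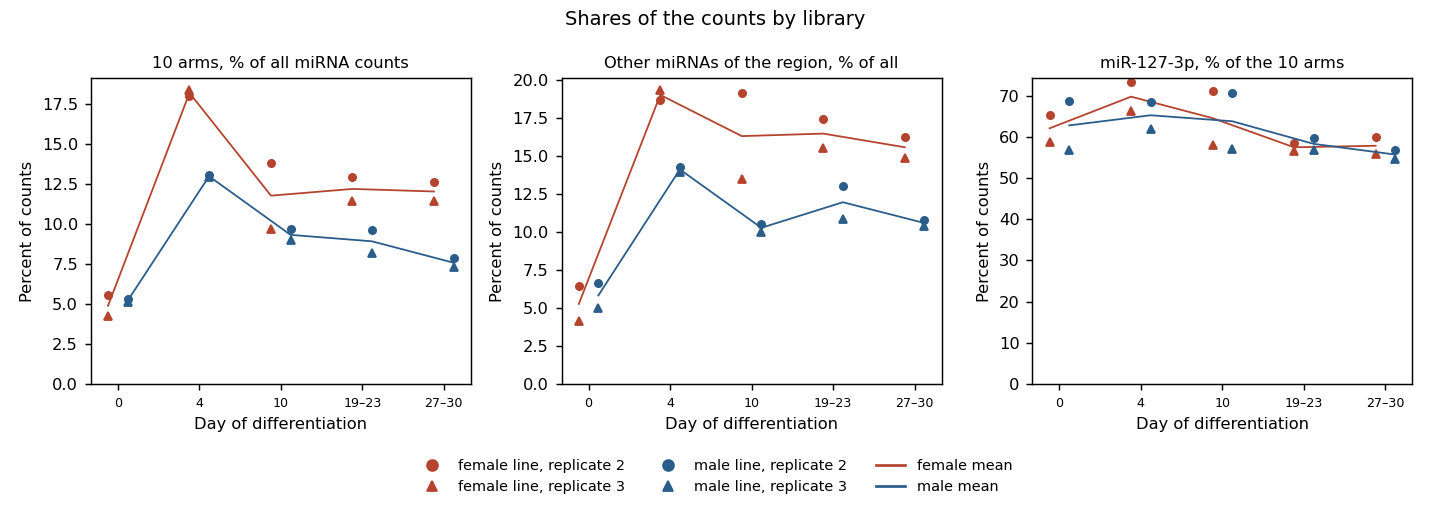
Percent of plain counts by day of differentiation, 1 point per library with lines through group means: the 10 arms among all miRNAs (left), the other Dlk1-Dio3 miRNAs among all miRNAs (middle) and miR-127-3p among the 10 arms (right), each axis starting at 0. The 10 arms go from 4.21% to 5.54% at day 0 to 12.9% to 18.4% at day 4.

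The arms of a hairpin are cut from 1 precursor, so their ratio was compared across stages. The 3p arm was the more abundant for miR-127 (median 131.0 times the 5p arm over 20 libraries, lowest 100.4), miR-433 (14.9 times, 12.2 to 23.3), miR-434 (5.04 times, 3.59 to 8.27) and miR-136 (6.73 times, 1.40 to 10.7). For miR-431 the 5p arm was the more abundant (15.6 times), and for miR-337 the arms were close to equal (3p over 5p 1.10, 0.684 to 1.68). Between day 0 and day 4 or late cells, with the 4 libraries of both lines on each side, 0 of 12 exact two-sided permutation tests passed after adjustment over the 12, the smallest p that the design allows being 0.0286. That smallest p was reached by miR-431 in late cells, whose log2 ratio of 5p to 3p went from 4.40 ± 0.31 (SD, n = 4) to 3.64 ± 0.17 (exact permutation p = 0.0286, adjusted p = 0.196), with differences of -0.41 (female) and -1.11 (male) for each line alone. The log2 ratio of miR-434 differed from day 0 by 0.93 (female line) and 0.03 (male line) at day 4 (0.48 over both, exact permutation p = 0.0857, adjusted p = 0.196). The permutations took no account of line or replicate, so the 4 libraries of a stage were treated as exchangeable although they come from 2 lines.

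The miR-136 ratio differed between replicates at day 0. There its log2 ratio of 5p to 3p was -2.91 and -1.08 (female) and -1.80 and -0.48 (male), and at day 4 it was -3.19 and -2.82 (female) and -3.42 and -2.75 (male). The day 0 libraries of replicate 3 of both lines were the highest of the 20, and female day 0 replicate 2 lay among the later libraries, so the stages overlapped. The difference between days 4 and 0 was -1.48, with an SD of 1.05 at day 0 (exact permutation p = 0.0857, adjusted p = 0.196). Male day 10 replicate 2, at -1.31, also stood above its partner at -2.96. The replicates of male day 10 differed as widely in the miR-431 ratio, at 4.44 and 2.78.

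**Figure D4:**
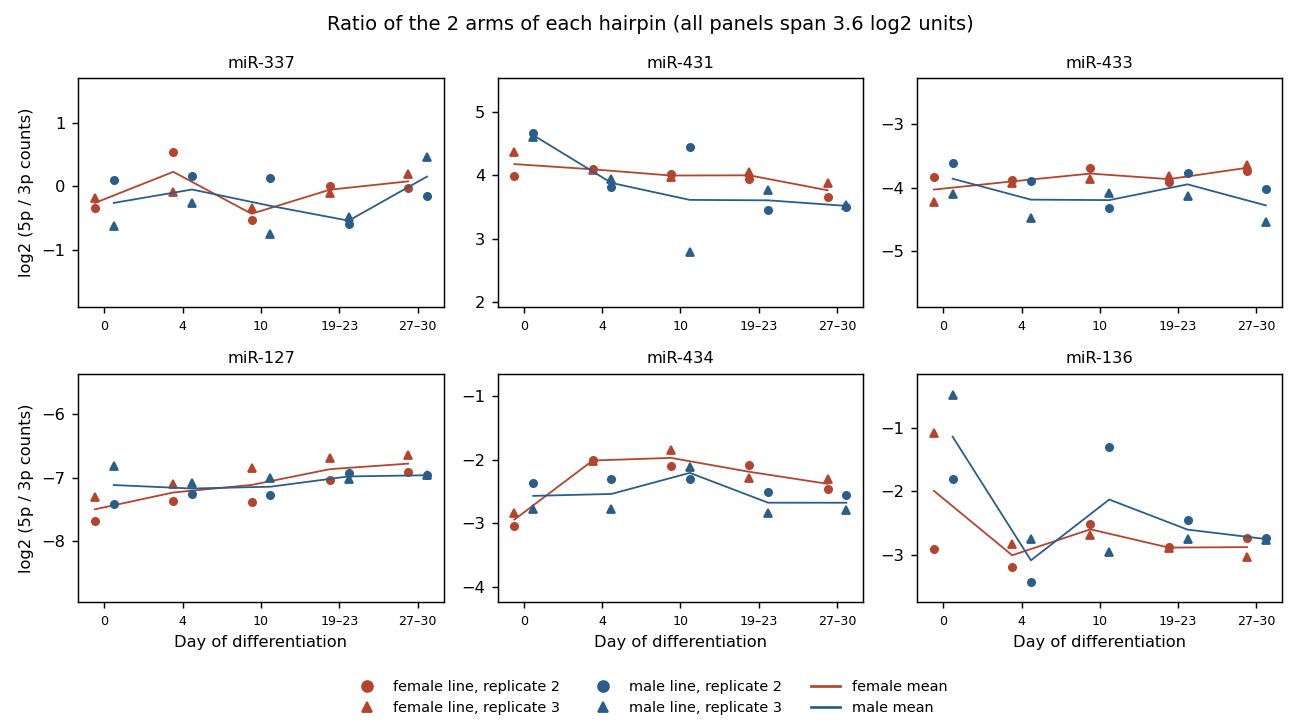
Log2 ratio of 5p to 3p counts for each hairpin by day of differentiation, 1 point per library with lines through group means (female line red, male line blue). Every panel spans the same number of log2 units, and at day 0 the miR-136 values run from -2.91 to -0.48.

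The day 0 spread of the miR-136 ratio lay in miR-136-5p, whose course differed from that of the other arms. Female cells held it at 459 and 1185 CPM on day 0, 1361 and 1426 CPM on day 4 and 1071 and 739 CPM late. In male cells it was at 919 and 2228 CPM at day 0, 749 and 953 CPM at day 4, 2079.7 and 692 CPM at day 10 and 515 and 477 CPM in late cells. In each line the day 0 replicates differed by more than the means of days 0 and 4 did, and in both day 0 replicate 3, one of the samples with the differing cell-type label, was the higher of the pair. The late male fall (-1.67 ± 0.56, adjusted p = 0.0281) was not called without male day 0 replicate 3 (-0.99), without either male late library, or with library totals (-1.03). Across the 20 libraries, the log2 levels of the other 9 arms had pairwise correlations of 0.421 to 0.976 (36 pairs, median r = 0.862), while those with miR-136-5p had a median of 0.290 (9 pairs, 0.174 to 0.442). These correlations are descriptions, since the points share lines, experiments and scaling factors.

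Part of the miR-136 and miR-337 signal cannot be assigned to a strand. RefSeq places a second hairpin on the minus strand at each of these loci, miR-3071 at that of miR-136 and miR-3544 at that of miR-337, and the mature arms overlap by 17 to 21 bases. The miR-3071 and miR-3544 arms are read from the minus strand. Their overlapping bases are therefore the complement of those of the members, in reverse order. Their sequences run 5′ to 3′, here with the seed in capitals.
miR-3071-3p: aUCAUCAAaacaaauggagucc
miR-3071-5p: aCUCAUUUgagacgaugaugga
miR-3544-5p: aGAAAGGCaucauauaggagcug
miR-3544-3p: aCUCCUGCaugacgccguuccc
miR-3071-3p had 1.04 to 1.17 times the count of miR-136-5p in the 20 libraries, although the latter spanned from 459 to 2228 CPM. miR-3071-5p had 0.862 to 0.946 times the count of miR-136-3p, and miR-3544-5p 1.01 to 1.05 times that of miR-337-3p. The last pair, miR-3544-3p and miR-337-5p, overlap by the fewest bases, and there the ratio was lower and less even, at 0.122 to 0.282. Whether the authors counted reads by strand is not given in the sources used here, so reads from the strands cannot be told apart and the levels of these 4 arms are uncertain in that sense. The same holds for any share of the region, in which such reads may be counted more than once.

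**Figure D5:**
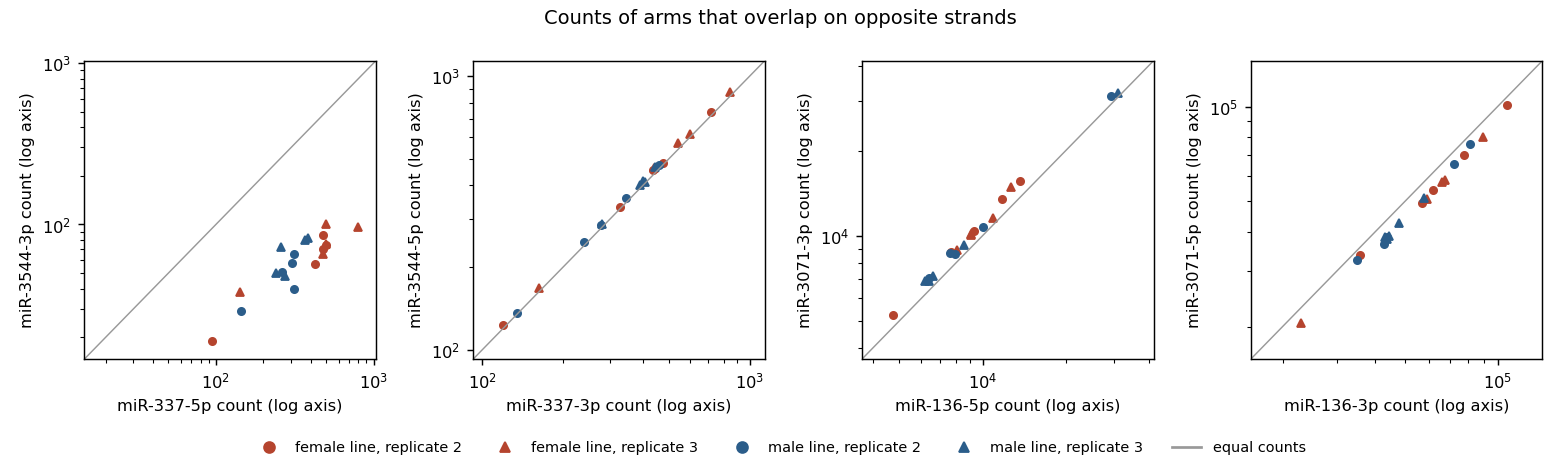
Counts of the 4 pairs of arms that overlap on opposite strands, 1 point per library on log axes, with a grey line where the counts are equal. Points of 3 pairs follow the line, at ratios from 0.862 to 1.17, and those of miR-337-5p and miR-3544-3p lie below it.

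Over 514 miRNAs with a mean of at least 10 CPM, those whose levels were most like the mean standardised course of the 10 arms over the 20 libraries were miR-377-3p (r = 0.966), miR-3071-5p (0.953), miR-376a-3p (0.944), miR-134-3p (0.937) and miR-409-3p (0.934). The second is the arm that overlaps miR-136-3p on the other strand. All 20 of the most alike were other miRNAs of the Dlk1-Dio3 region, of which 81 were ranked. Outside the list of the region's miRNAs the most alike were miR-200b-5p (0.822), miR-6540-5p (0.787), miR-195a-3p (0.772), miR-200a-5p (0.744) and miR-96-3p (0.744). These values describe the 20 libraries, which share lines, experiments and scaling.

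The nearest neighbours of the set gave a further view of the hairpins. miR-431-3p, the opposite arm to miR-431-5p, rose at day 4 in female (1.56 ± 0.34, adjusted p = 0.00229) and male cells (1.66 ± 0.34, adjusted p = 0.00167), and was still higher in late cells of both lines (1.35, adjusted p = 0.00485, and 0.93, adjusted p = 0.0377). In late male cells miR-431-5p, by contrast, had a log2 change of -0.18. The opposite arm of miR-433-3p, miR-433-5p, rose at day 4 by 1.76 and 0.87 in female and male cells, and its late male change of 0.32 did not pass. Of the 12 arms of neighbouring hairpins (miR-370, miR-493, miR-540, miR-665, miR-673 and miR-770), 10 rose in female and 12 in male cells at day 4, and 6 and 5 were higher in late cells. At day 4, 24.5% (female) and 25.1% (male) of all tested miRNAs were called higher. Of the neighbouring arms, miR-370-3p had late changes of 2.17 ± 0.38 (female line) and 1.76 ± 0.37 (male line), with adjusted p = 0.000325 and 0.00228. Among all 94 tested miRNAs of the region outside the set, 54 were higher in late female cells and 24 in late male cells, with 1 lower, and their late medians were 1.36 and 0.70. Over all 813 tested, 24.1% and 19.6% were higher, 21.2% were lower in late male cells, and the late medians were 0.01 and 0.05.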

How the data were processed

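MicroRNAs were counted in 20 small RNA libraries of a male and a female line, 2 per line and stage. Per the labels' protocols, RNA was taken up in Trizol, treated with DNase and made into libraries by Illumina's instructions. The authors deposited raw counts per mature miRNA in 1 table per line, and these counts were used here. The submitters' processing notes name CASAVA 1.8.2, DESeq2, GRCm38 and mm10. How reads were aligned and annotated, whether strand was used and how reads that match several places were counted is not given in the sources used here.

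Deposited tables held 1091 (male) and 1109 (female) miRNAs, of which 1063 were shared and joined. edgeR 4.0.16 (R 4.3.3) fitted the 20 libraries together, 1 coefficient for each group, after TMM scaling (factors 0.551 to 1.43) and filterByExpr, which kept 813 miRNAs and 99.997% of the counts. Quasi-likelihood F tests (10 residual degrees of freedom, common dispersion 0.171) had Benjamini-Hochberg adjustment in each of 21 contrasts, with a threshold of 0.05. Standard errors were taken as the log2 change divided by the square root of F. TMM assumes that most miRNAs do not change, and a region that takes up as much as 37.7% of the counts of a library can bend any scaling, so alternatives are given. Arm ratios are log2 of 5p over 3p counts with 0.5 added, tested by exact two-sided permutation (SciPy 1.17.1). Correlations use log2 CPM with a prior count of 2.

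The members and lists were chosen with earlier results of these data known. All 10 arms are named. Likeness took the 5 highest correlations with their mean course among all ranked miRNAs outside the set, and the 5 highest among those outside the region. The arms nearest to the set were named with their values. The experiment name in the labels gives the replicate number, and it marks a shared differentiation experiment within a line. Deviations from group means correlated at -0.0998 to 0.403 between stages of a line (20 pairs, median 0.0766) and at 0.13 to 0.554 between lines at a stage (5 pairs, median 0.393). The main fit had no term for the replicate and treated these libraries as independent. The replicate block adds a single term for the replicate number, shared by both lines and all stages. It thus treats the equally numbered experiments of the lines as the same block. The scripts were tested on simulated data. Sequences and mature positions came from RefSeq (GRCm38.p6) and the Rtl1 model from GENCODE M21.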

Additional observations from a re-analysis of the deposited data

How the results depend on the processing

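Per alternative, 56 (library totals) to 76 (DESeq2, replicate block) of the 80 log2 changes of the arms against day 0 kept both direction and side of the threshold. Those that changed sign were not called by either fit. In male cells of days 19 to 23 miR-127-3p was 0.063 with DESeq2 and RLE scaling, 0.099 with a filter at 10 CPM, 0.029 with no filter, 0.149 with the region left out of the scaling and 0.674 with library totals, which also turned miR-431-5p to 0.484. In late male cells library totals gave 0.372 (miR-127-3p), 0.528 (miR-127-5p) and 0.478 (miR-431-5p), and scaling without the region 0.040 (miR-127-5p). In female cells of days 19 to 23 miR-136-5p was 0.140 (filter at 10 CPM), 0.191 (region left out) and 0.509 (library totals).

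When each library was left out in turn, 1413 values kept direction and side, 5 gained a call, 37 changed sign and the rest lost a call, the lone library of a group being assumed to vary like the other groups. Log2 changes that crossed 0 ran from -0.366 to 0.197 (miR-127-3p), -0.262 to 0.177 (miR-127-5p) and -0.033 to 0.385 (miR-136-3p) in male cells of days 19 to 23, and from -0.061 to 0.117 (miR-136-3p) and -0.286 to 0.886 (miR-337-3p) in late male cells. At male day 10 they ran from -1.189 to 0.532 (miR-136-5p), -0.406 to 1.303 (miR-337-3p), -0.405 to 0.570 (miR-431-5p) and -0.066 to 0.716 (miR-433-3p). In female cells miR-136-5p ran from -0.210 to 0.971 (day 10), -0.499 to 0.713 (days 19 to 23) and -0.384 to 0.850 (late). Arm ratios that crossed 0 ran from -0.021 to 0.268 (miR-127 day 4), -0.153 to 0.149 (miR-433 late) and -0.196 to 0.046 (miR-433 day 4).

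With library totals the number of arms called was 0 for female day 10 against day 4, 5 for male day 10, 6 for male days 19 to 23 and 5 for late male cells. RLE scaling gave 1 for female day 10 against day 4, and leaving the region out of the scaling gave 1 for male day 10 against day 4. With each line fitted alone it was 4 (female day 10), 0 (female day 10 against day 4), 5 (male day 4) and 1 (male day 10). With no filter it was 0 (female day 10 against day 4), 5 (female days 19 to 23), 5 (male day 4) and 1 (male day 10), and with a filter at 10 CPM 0 (female day 10 against day 4) and 1 (male days 19 to 23). DESeq2 gave 1 for female against male at day 4. The replicate block gave 5 (female day 10 against day 4), 4 (male day 10), 2 (female against male at day 4) and 1 (male day 10 against day 4), and all calls made without the block against day 0 were kept. In the other contrasts the block moved no count by over 1.5 times. Apart from DESeq2, the alternative fits and those without 1 library have no share of all tested miRNAs beside their counts.

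Leaving out 1 library gave counts of 2 to 8 (female day 10), 0 to 1 (female day 10 against day 4), 2 to 8 (female days 19 to 23), 4 to 8 (female late), 3 to 8 (male day 4), 0 to 3 (male day 10), 0 to 1 (male days 19 to 23) and 0 to 1 (male late). The ratios of shares then ran from 3.278 to 4.314 (female day 4), 2.168 to 2.853 (female late), 2.458 to 2.546 (male day 4) and 1.406 to 1.513 (male late). With the counts outside the region as denominator they were 5.315 (female day 4), 3.052 (female late), 3.052 (male day 4) and 1.587 (male late), and without miR-127-3p 2.341 (male day 4) and 1.741 (male late). In the female line the mean share without miR-127-3p was 1.83% at day 0, 5.50% at day 4 and 5.05% in late cells.

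By line, female then male, the change of the log2 arm ratio was 0.720 and 0.154 (miR-127 late), -0.412 and -1.115 (miR-431 late), -0.082 and -0.754 (miR-431 day 4), 0.343 and -0.420 (miR-433 late), 0.563 and -0.108 (miR-434 late) and 0.930 and 0.031 (miR-434 day 4). The cause of these moves was not tested. Each group held 2 libraries.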

Other observations

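Arms that overlap on opposite strands were also compared elsewhere in the tables. RefSeq gives 12 pairs of mature arms with an overlap of at least 15 bases that are in both tables, and in 10 of them both arms together or singly passed a total of 1000 counts. Of these 10, 4 hold a member of the set. In the 6 that hold none, the total of the minus-strand arm was between 0.5 and 2 times that of the plus-strand arm for 3 pairs and outside that range for 3. On chromosome X, miR-374c-3p and miR-374b-5p had totals of 32861 and 32887 counts over the 20 libraries. On chromosome 11, miR-3065-5p and miR-338-3p had totals of 1369 and 1372. The 3 pairs outside the range were miR-30f and miR-30e-3p, with 4019 and 100396 counts, and both pairs of miR-299a and miR-299b, where the minus-strand arm had 0.0497 and 0.0472 times the count of the other.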
